A study of Homo sapiens with 16 samples.

Results

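The comparison described here is between HEK293 cells that overexpressed wild-type RNF43 and HEK293 cells that overexpressed green fluorescent protein (GFP), each measured by RNA-seq in 4 libraries. The 8 libraries were taken by their labels, out of 16 in the series. HEK293 is an established line from human embryonic kidney. Both groups carry an overexpression construct, so a difference can belong to RNF43, to GFP or to both. The other 8 libraries carry the RNF43 frameshift variants R117fs or G659fs (4 each) and serve to test whether a difference was shared. They also enter the estimate of spread behind each call, since all 16 libraries were fitted together. The labels give no time point, promoter or clone, and they do not say that replicates were separate cultures. The p-values may therefore rest on technical spread alone. Fewer cells of a state and less RNA per cell cannot be told apart in such bulk libraries.

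RNF43 sits in the plasma membrane and ubiquitinates Frizzled receptors, which are then internalised and degraded, so that cells respond less to Wnt ligands. It is itself a Wnt target and is often mutated in tumours of the gut. The results below cover genes outside that pathway: ribosome production, metabolism, developmental factors, protein turnover and RNA processing.

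The deposited estimated counts came to between 25441077 and 30937321 per GFP library and between 32761360 and 46779570 per RNF43 library. The RNF43 libraries were thus deeper without overlap, and the part of depth in the results was not tested. Of 12 genes listed as marking the line, 11 averaged over 1 CPM (counts scaled to a common library size) in GFP and 12 in RNF43, and their summed level was 1100 to 1250 CPM in GFP and 1430 to 1540 CPM in RNF43. Across the 8 libraries, listed endothelial markers summed to at most 1.65 CPM, mature renal tubule markers to at most 3.58 CPM and haematopoietic markers to at most 11.1 CPM. Fibroblast markers summed to between 34.1 and 56.5 CPM and gut epithelium markers to between 25.4 and 31.4 CPM, in each list with 2 markers over 1 CPM in either group. The part of such cells in the results was not tested. RNF43 itself was at 13.1, 34.3, 27.8 and 50.3 CPM in GFP and at 42146, 58625, 52845 and 59768 CPM in RNF43.

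By edgeR's quasi-likelihood test with Benjamini-Hochberg adjustment, 3603 of 16787 genes differed at an adjusted p under 0.05, or 21.5% of those tested. Of these, 1654 rose with RNF43 (9.85%) and 1949 fell (11.6%). Leaving out GFP replicate 4 gave 2221 calls, and the count was 6133 without R117fs replicate 4, a library that enters only through the shared estimate of spread. With the 8 libraries alone 5919 genes were called, 2950 higher and 2969 lower, so counts of list members below hold for the fit of all 16. A difference of at least 2-fold was called for 349 genes (2.08%), 96 upwards (0.572%) and 253 downwards (1.51%). The 4 RNF43 libraries did not overlap the 4 GFP libraries in 33.8% of genes tested, 17.1% upwards and 16.7% downwards. Most changes were small, with a median log2 difference of 0.34 among risen and -0.44 among fallen genes. Risen genes had a median length of 2167 bases and fallen genes of 3081 bases, against 2670 over all genes tested.

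Cells assemble ribosomes in the nucleolus, where processing factors fold and trim ribosomal RNA, and mitochondria carry a ribosome of their own whose proteins are nuclear encoded. Genes of both systems rose with RNF43. Of 62 ribosome biogenesis genes 26 rose (41.9%) and 0 fell, with a median log2 difference of 0.20 against 0.0010 over all genes. Of 78 mitochondrial ribosomal protein genes 30 rose (38.5%) and 0 fell, with a median of 0.17. Cytosolic ribosomal proteins had 20 of 85 higher (23.5%), and translation initiation factors 10 of 43 (23.3%), with 0 lower in either list. The median length was 2227 bases for the biogenesis, 1176 for the mitochondrial and 679 for the cytosolic list, all below that of all genes tested. With a trend on gene length removed, 24 biogenesis, 22 mitochondrial and 9 cytosolic ribosomal protein genes were called, the last with a median of 0.06. Without GFP replicate 4 the counts were 14, 14 and 9 in that order, and 5 for initiation factors. The biogenesis count was also lower by more than 1.5-fold without GFP replicate 2 or 3 or RNF43 replicate 2 or 4 (17, 15, 14 and 17), and the mitochondrial one without GFP replicate 2 or RNF43 replicate 4 (18 each). Without RNF43 replicate 1, 3 or 4 there were 12 cytosolic ribosomal protein genes, and without GFP replicate 3 or RNF43 replicate 2 or 4 there were 5, 5 and 6 initiation factors. With the 8 libraries alone 38 biogenesis, 48 mitochondrial and 38 cytosolic genes and 19 initiation factors were higher, and 1, 0, 1 and 1 lower.

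**Figure D1:**
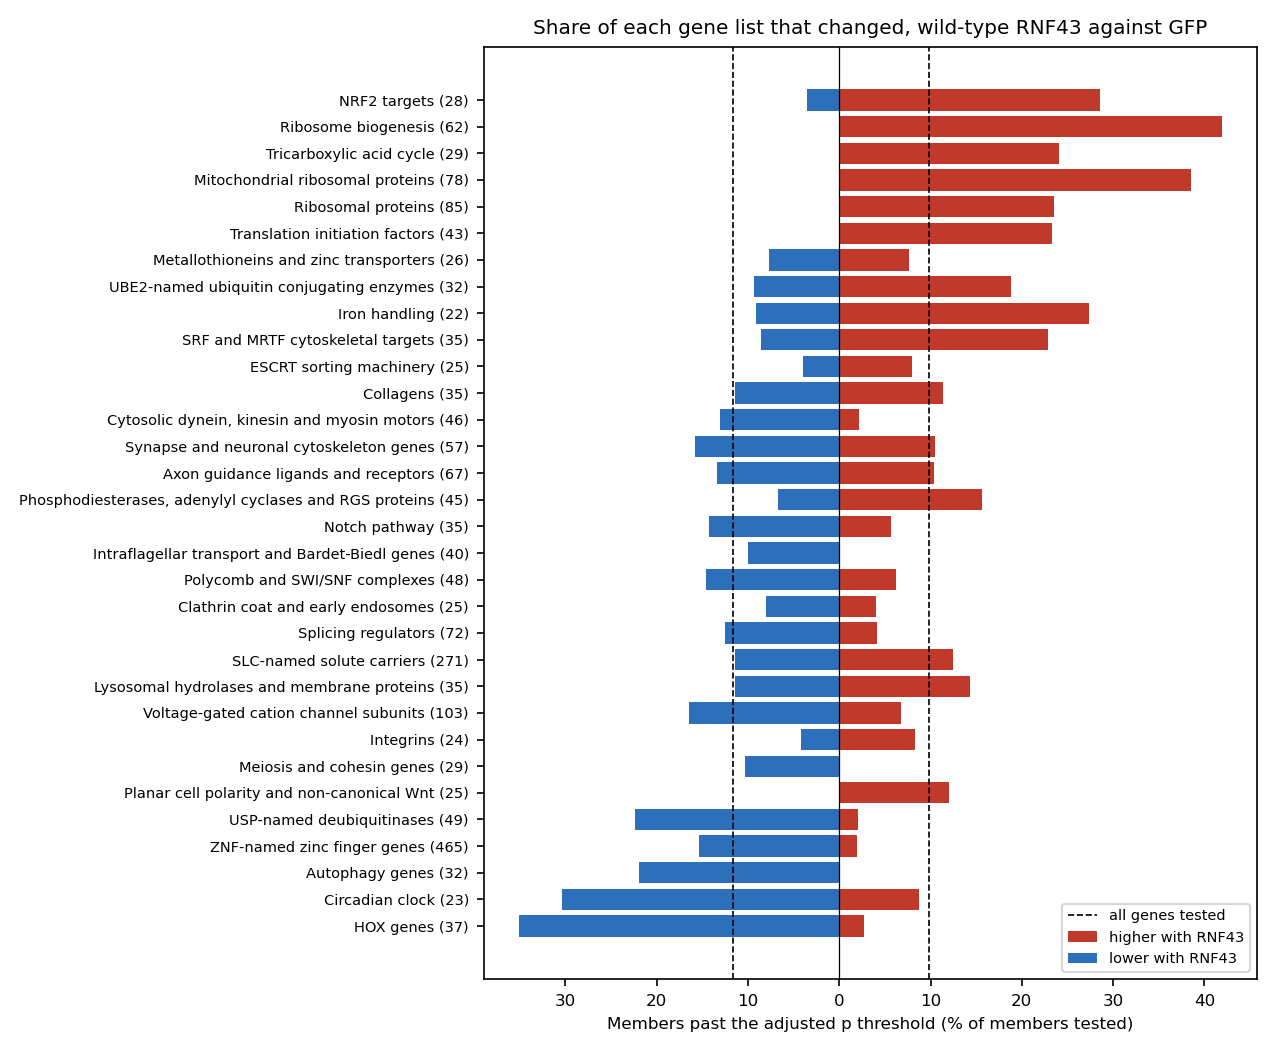
Share of each list's tested members (number in brackets) that passed the adjusted p threshold, higher to the right and lower to the left, in percent. The dashed lines mark all genes tested, of which 9.85% rose and 11.6% fell. Ribosome biogenesis reaches farthest to the right and HOX genes farthest to the left; lists of fewer than 20 tested genes are not drawn.

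MRTO4 and EBNA1BP2, both factors of large subunit assembly, are shown first with their promoters (RefSeq, GRCh38.p14, 250 bases before to 50 after the start), because each holds an E-box, CACGTG, in capitals. The E-box is a motif that MYC and related factors can bind. The MRTO4 window is chr1:19251555-19251854 on the plus strand and the EBNA1BP2 window chr1:43172521-43172820 on the minus strand.
MRTO4: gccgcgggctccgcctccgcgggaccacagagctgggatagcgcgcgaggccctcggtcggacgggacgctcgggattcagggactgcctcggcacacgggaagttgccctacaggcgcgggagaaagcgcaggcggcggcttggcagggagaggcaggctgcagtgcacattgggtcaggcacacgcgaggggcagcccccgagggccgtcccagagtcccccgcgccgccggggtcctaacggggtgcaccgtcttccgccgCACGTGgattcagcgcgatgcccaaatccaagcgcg
EBNA1BP2: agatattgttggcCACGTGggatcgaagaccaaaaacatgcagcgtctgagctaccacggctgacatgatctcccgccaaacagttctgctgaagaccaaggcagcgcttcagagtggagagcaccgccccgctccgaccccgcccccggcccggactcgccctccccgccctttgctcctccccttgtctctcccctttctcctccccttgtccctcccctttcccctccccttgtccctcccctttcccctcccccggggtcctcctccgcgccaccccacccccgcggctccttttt
The E-box, searched on both strands, was in 20 of the 53 ribosome biogenesis promoters that matched a RefSeq entry (37.7%), against 9.75% for all tested genes and 7.43% of all 27305 promoters. Of the 20 members with it 10 rose (median 0.22), and of the 33 without it 10 (median 0.17). Over all genes the motif was in 12.5% of promoters of risen and 11.9% of fallen genes. These shares rest on the 11820 of 16777 tested genes with a matched promoter, too few for a check of the whole set. Other lists, falling ones included, held it too. It was in 8 of 18 matched promoters of HOX genes (44.4%, with 37 genes in the list), in 26.3% of the clock list, in 25% of initiation factors and in 8.7% of mitochondrial ribosomal proteins. A match describes letters and is not a bound site.

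MRTO4 was at 64.3, 61.6, 57.6 and 57.3 CPM in GFP and at 72.7, 80.2, 73.8 and 79.9 CPM in RNF43. EBNA1BP2 was at 61.8, 57.01, 57.8 and 56.3 CPM in GFP and at 72.04, 78.1, 70.1 and 72.4 CPM in RNF43. In both, every RNF43 library lay above every GFP library. MRTO4 rose by 0.35 ± 0.06 (adjusted p = 0.000947) on the log2 scale, where ± gives the SE, and EBNA1BP2 rose by 0.33 ± 0.06 (adjusted p = 0.000589). DKC1, the pseudouridine synthase of small nucleolar particles, rose by 0.33 ± 0.07 (adjusted p = 0.00173). NHP2, from the same particle, rose by 0.42 ± 0.09 (adjusted p = 0.00251). Against the variants, wild type minus R117fs for EBNA1BP2 was 0.22 (adjusted p = 0.0242) and wild type minus G659fs 0.25 (adjusted p = 0.0197). MYC, chosen after its values were seen, was at 178, 168, 158 and 167 CPM in GFP and at 204, 290.4, 210.3 and 241 CPM in RNF43. Its groups did not overlap, and it rose by 0.49 ± 0.09 (adjusted p = 0.00137).

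Among mitochondrial ribosomal proteins, MRPL30 was at 49.7, 48.1, 50.02 and 45.8 CPM in GFP and at 71.9, 67.2, 66.8 and 65.3 CPM in RNF43. All 4 RNF43 libraries lay outside the GFP range, and MRPL30 rose by 0.49 ± 0.09 (adjusted p = 0.000843). MRPL15 rose by 0.46, MRPL12 rose by 0.44 and MRPL17 rose by 0.38. Of the cytosolic ribosomal proteins, RPL12 rose by 0.30 ± 0.06 (adjusted p = 0.00264) and RPS24 rose by 0.23 ± 0.05 (adjusted p = 0.002). EIF4EBP1, which holds back the cap-binding factor of translation, rose by 0.52 ± 0.10 (adjusted p = 0.00113). EIF4A1, an RNA helicase of initiation, rose by 0.35 ± 0.06 (adjusted p = 0.00042). EIF3C rose by 0.51, but it has a near-identical copy in the genome and its counts are uncertain.

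The tricarboxylic acid cycle oxidises acetyl groups in mitochondria. Of its 29 genes 7 rose (24.1%) and 0 fell, with a median of 0.18; with the 8 libraries alone 18 rose. SUCLG2, a subunit of succinyl-CoA ligase, was at 41.5, 44.2, 41.2 and 38.5 CPM in GFP and at 59.9, 66.96, 58.4 and 61.9 CPM in RNF43. All RNF43 libraries were above all GFP libraries, and SUCLG2 rose by 0.58 ± 0.11 (adjusted p = 0.00157). IDH2, the mitochondrial NADP-dependent isocitrate dehydrogenase, rose by 0.46, fumarase (FH) rose by 0.32 and malate dehydrogenase (MDH2) rose by 0.29.

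NRF2 is a transcription factor that induces genes against oxidative stress. Of 28 listed targets 8 rose (28.6%) and 1 fell, against 9.85% and 11.6% of all genes, with a median of 0.20. The number that rose was lower when any 1 of the 8 libraries was left out: 3 without GFP replicate 3 or RNF43 replicate 4, 4 without GFP replicate 1, 2 or 4 or RNF43 replicate 2, and 5 without RNF43 replicate 1 or 3. HMOX1, haem oxygenase, was at 17.8, 17.3, 15.6 and 16.9 CPM in GFP and at 25.7, 26.8, 26.1 and 26.3 CPM in RNF43. RNF43 and GFP libraries did not overlap, and HMOX1 rose by 0.64 ± 0.08 (adjusted p = 3.7e-05). Wild type minus R117fs was 0.40 (adjusted p = 0.0061) and wild type minus G659fs 0.34 (adjusted p = 0.0197), so HMOX1 was higher in wild type than in either variant. Thioredoxin (TXN) rose by 0.46 and the aldose reductase AKR1B1 rose by 0.34. The member that fell was ABCC2, an organic anion exporter, which fell by 0.77; with effective length as an offset its difference was -0.50 (adjusted p = 0.0734), and the call was lost. Of 22 iron-handling genes 6 rose (27.3%) and 2 fell (9.09%). With effective length as an offset 1 rose and 2 fell, and without GFP replicate 4 the numbers were 2 and 1. STEAP3, a ferrireductase, rose by 0.38 ± 0.08 (adjusted p = 0.00187), and transferrin (TF) fell by 0.60 ± 0.15 (adjusted p = 0.00728).

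HOX genes encode homeodomain factors that set position along the body axis. Of 37 tested, 13 fell (35.1%) and 1 rose, with a median log2 difference of -0.21. HOXB4 (chromosome 17, 48575513 to 48580111, GRCh38) was at 13.6, 14.5, 14.04 and 14.8 CPM in GFP and at 5.82, 7.18, 5.92 and 5.996 CPM in RNF43. Every RNF43 library was below every GFP library, and HOXB4 fell by 1.19 ± 0.08 (adjusted p = 8.5e-08). HOXA4 (chromosome 7, 27128507 to 27130799) fell by 0.89 ± 0.10 (adjusted p = 1.9e-05), HOXC6 fell by 0.55 and HOXB3 fell by 0.48. HOXB4 averaged 6.12 CPM in R117fs and 7.26 CPM in G659fs, and wild type did not pass the test against either (adjusted p = 0.826 and 0.14). The count of fallen HOX genes was 18 with the length trend removed, 9 with effective length as an offset and 9 without GFP replicate 4.

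Of 465 ZNF-named genes, most of which encode DNA-binding factors, 71 fell (15.3%, against 11.6% of all genes) and 9 rose (1.94%, against 9.85%). Their median was -0.11. With effective length as an offset 45 fell, and without GFP replicate 4 the number was also 45. It was 44 without RNF43 replicate 2. Over all genes 1590 of 16787, 1314 of 16995 and 1466 of 16961 fell in these fits. With the offset the ZNF share was thus near that of all genes. ZNF467 was at 19.2, 19.8, 18.5 and 16.98 CPM in GFP and at 9.62, 7.57, 9.68 and 8.59 CPM in RNF43. There was no overlap between groups, and ZNF467 fell by 1.07 ± 0.15 (adjusted p = 9.0e-05). It averaged 19.6 CPM in R117fs, and wild type minus R117fs was -1.14 (adjusted p = 0.000245). For ZNF425, which fell by 0.75 against GFP, wild type minus R117fs was -0.79 (adjusted p = 0.000521).

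The circadian clock is a feedback loop in which ARNTL drives genes that later repress it. Of 23 clock genes 7 fell (30.4%) and 2 rose, with a median of -0.18; 4 fell with effective length as an offset. NR1D1, the nuclear receptor REV-ERB alpha that represses ARNTL, was at 19.95, 24.6, 21.2 and 28.1 CPM in GFP and at 8.43, 10.8, 8.77 and 10.1 CPM in RNF43. All RNF43 libraries were lower than all GFP libraries, and NR1D1 fell by 1.298 ± 0.15 (adjusted p = 1.7e-05). It averaged 21.4 CPM in R117fs, where wild type minus R117fs was -1.15 (adjusted p = 0.000245). ARNTL fell by 0.74 ± 0.13 (adjusted p = 0.000658) and BHLHE40, a repressor in the loop, rose by 0.44 ± 0.06 (adjusted p = 8.7e-05). PER3 fell by 0.63, a call lost with effective length as an offset, where its difference was -0.35 (adjusted p = 0.0681).

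**Figure D2:**
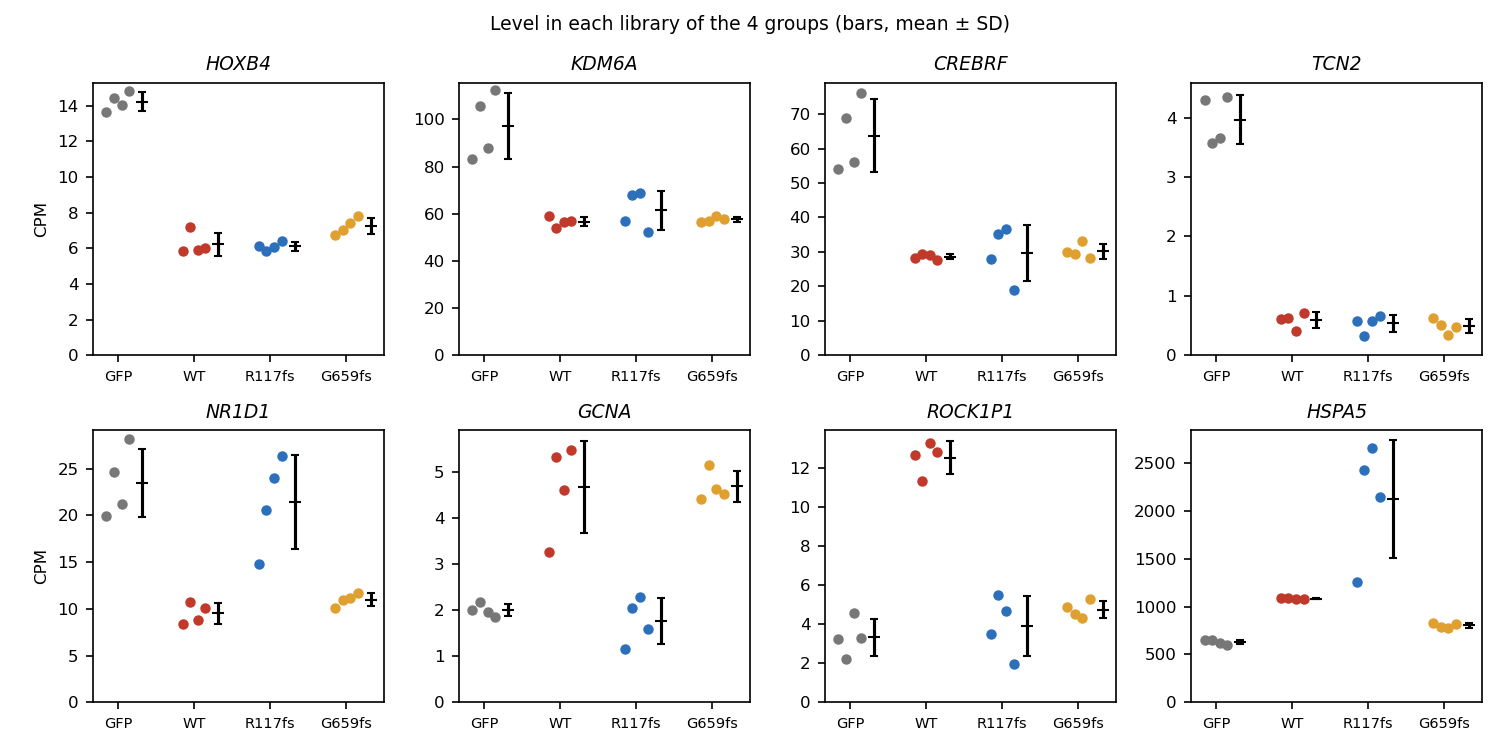
CPM (axis from 0) of 8 genes in each library of the 4 groups, with the mean ± SD beside the points. HOXB4, KDM6A, CREBRF and TCN2 lie below GFP in the 3 RNF43 groups, NR1D1 and GCNA lie near GFP in R117fs, and ROCK1P1 in wild type lies between 11.3 and 13.3 CPM, above the other groups.

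Because RNF43 acts on receptors that pass through endosomes and lysosomes, genes of that route were listed. Of 25 clathrin and early endosome genes 1 rose (4%) and 2 fell (8%), and of 25 ESCRT sorting genes 2 rose (8%) and 1 fell (4%). In this fit both lists were below the shares of all genes, 9.85% higher and 11.6% lower. Their counts varied with the fit. After a GC trend was removed, 4 rose and 6 fell in the first list and 7 rose and 4 fell in the second, and with the 8 libraries alone the numbers were 3 and 6, and 7 and 5. More of all genes were called there too. With the GC trend removed 3235 of 16787 rose and 3130 fell, and with the 8 libraries alone 2950 of 16288 rose and 2969 fell. The lists were not below all genes in every such count. Without GFP replicate 4 the ESCRT list had 0 higher and 1 lower. Of 18 listed V-ATPase subunits, which acidify lysosomes, 4 fell (22.2%) and 0 rose. ATP6V0D2, a subunit given with the largest rises below, is not on that list. Autophagy genes had 7 of 32 lower (21.9%) and 0 higher, with a median of -0.11. ATG14, of the lipid kinase complex that starts autophagosomes, was at 22.4, 25.7, 24.7 and 26.7 CPM in GFP and at 17.9, 18.5, 16.7 and 17.5 CPM in RNF43. The 4 libraries of each group kept apart, and ATG14 fell by 0.50 ± 0.08 (adjusted p = 0.000218). ULK1, the kinase that starts the process, fell by 0.44 ± 0.09 (adjusted p = 0.00178). Of 35 lysosomal genes 5 rose (14.3%), such as the protease CTSC (0.38), and 4 fell (11.4%), such as the sialidase NEU1 (-0.49), both shares near those of all genes (9.85% and 11.6%). Without GFP replicate 2 or 4 only 1 lysosomal gene rose; the number was 3 without RNF43 replicate 1 and 2 with effective length as an offset.

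Among ubiquitin genes, 11 of 49 USP-named deubiquitinases fell (22.4%) and 1 rose. UBE2-named conjugating enzymes had 6 of 32 higher (18.8%) and 3 lower (9.38%). The number higher was 2 without GFP replicate 4 or RNF43 replicate 1, 3 without GFP replicate 2 or RNF43 replicate 2, 3 or 4, and 3 with the length trend removed. USP32 was at 77.4, 95.1, 83.7 and 103 CPM in GFP and at 55.96, 62.8, 62.8 and 64.1 CPM in RNF43. No RNF43 library fell within the GFP range, and USP32 fell by 0.55 ± 0.10 (adjusted p = 0.000658). UBE2H fell by 0.50 ± 0.08 (adjusted p = 0.000286), and UBE2C, which serves the anaphase-promoting complex, rose by 0.29 ± 0.05 (adjusted p = 0.000646).

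Planar cell polarity and non-canonical Wnt genes had 3 of 25 higher (12%, near the 9.85% of all genes) and 0 lower, with a median of -0.08. That balance did not hold in every fit. Fitting the 8 libraries alone gave 3 higher and 4 lower, leaving out R117fs replicate 4 gave 3 and 7, and removal of a GC trend gave 4 and 6. Over all genes 5919, 6133 and 6365 were called in those fits, more than in the main one. VANGL1, a membrane protein of the polarity complex, was at 41.5, 44.5, 41.9 and 41.9 CPM in GFP and at 48.3, 51.4, 49.7 and 53.4 CPM in RNF43. All 4 RNF43 libraries lay outside the GFP range, and VANGL1 rose by 0.26 ± 0.07 (adjusted p = 0.00964). In the Notch list 5 of 35 fell (14.3%, near the 11.6% of all genes) and 2 rose, and 3 fell without GFP replicate 4 or RNF43 replicate 3. The receptor NOTCH1 fell by 0.49 ± 0.10 (adjusted p = 0.00186), and the target HEY1 rose by 0.42 ± 0.07 (adjusted p = 0.000309). In the Hedgehog list 3 of 17 fell (17.6%) and 2 rose (11.8%), against 11.6% and 9.85% of all genes. The number that rose was 0 without GFP replicate 1 or 4 or RNF43 replicate 4, and 1 when any other of the 8 libraries was left out. GLI1, a transcription factor and target of the pathway, fell by 0.43 ± 0.11 (adjusted p = 0.00828).

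Among genes with at least 50 CPM, NEFM (neurofilament medium chain) was at 118, 127, 105 and 137 CPM in GFP and at 162, 313, 199.9 and 246 CPM in RNF43. The groups were apart although RNF43 libraries varied widely, and NEFM rose by 0.92 ± 0.17 (adjusted p = 0.00139). Its partner NEFL rose by 0.57 ± 0.09 (adjusted p = 0.000429). The synapse and neuronal cytoskeleton list had 6 of 57 higher (10.5%) and 9 lower (15.8%), against 9.85% and 11.6% of all genes. Without RNF43 replicate 2 that list had 3 higher, and the number lower was 5 without GFP replicate 4. KDM6A, a histone H3 demethylase, was at 83.1, 106, 87.97 and 112 CPM in GFP and at 59.2, 54.1, 56.5 and 56.9 CPM in RNF43. All RNF43 libraries were lower than all GFP libraries, and KDM6A fell by 0.78 ± 0.10 (adjusted p = 3.3e-05). AP5Z1, of an endosomal adaptor complex, fell by 0.88 ± 0.12 (adjusted p = 0.000101) and FAM13B fell by 0.76 ± 0.11 (adjusted p = 0.000111). The p53-induced genes DDB2, PIDD1 and AEN made up the other falls named at this level (-0.97, -0.84 and -0.81). Stress genes made up most of the rises: ATF3 rose by 0.77, MANF rose by 0.82 and TRIB3 rose by 0.68, the last with overlapping groups. The TRIB3 call was lost with the 8 libraries alone (adjusted p = 0.0578) and without GFP replicate 2 or 4 or RNF43 replicate 1, 3 or 4 (adjusted p up to 0.0828). The zinc exporter SLC30A1 fell by 0.78 ± 0.14 (adjusted p = 0.0008).

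Most genes with the largest fold changes were expressed at a low level. VSIR, an immune checkpoint membrane protein, was at 0.7601, 0.9202, 0.584 and 0.745 CPM in GFP and at 2.11, 2.28, 2.24 and 2.33 CPM in RNF43. The groups were apart, as the rule for these genes required, and VSIR rose by 1.58 ± 0.19 (adjusted p = 2.2e-05). GCNA, a germ cell nuclear protein, rose by 1.22 ± 0.18 (adjusted p = 0.000139), and wild type minus R117fs was 1.44 (adjusted p = 0.000197). IGFN1, an immunoglobulin-domain protein of muscle, rose by 1.67 ± 0.22 (adjusted p = 6.2e-05), and wild type minus R117fs was 2.302 (adjusted p = 2.6e-05). The muscle sodium channel SCN4A rose by 1.27, the peptide hormone SPX rose by 1.17, the V-ATPase subunit ATP6V0D2 rose by 1.17 and the linker histone HIST1H1E rose by 1.899. FRG2B rose by 2.75, but near-identical copies make its counts uncertain. LENG9 ranked first, but its GFP libraries reached at most 0.0368 CPM, 2 of them being at 0. It had 0.0589 CPM in RNF43 replicate 3 and up to 3.77 CPM in the others, and its call was lost in 6 of the fits that leave out a library (each GFP replicate, and RNF43 replicates 1 and 4; adjusted p up to 0.0835).

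**Figure D3:**
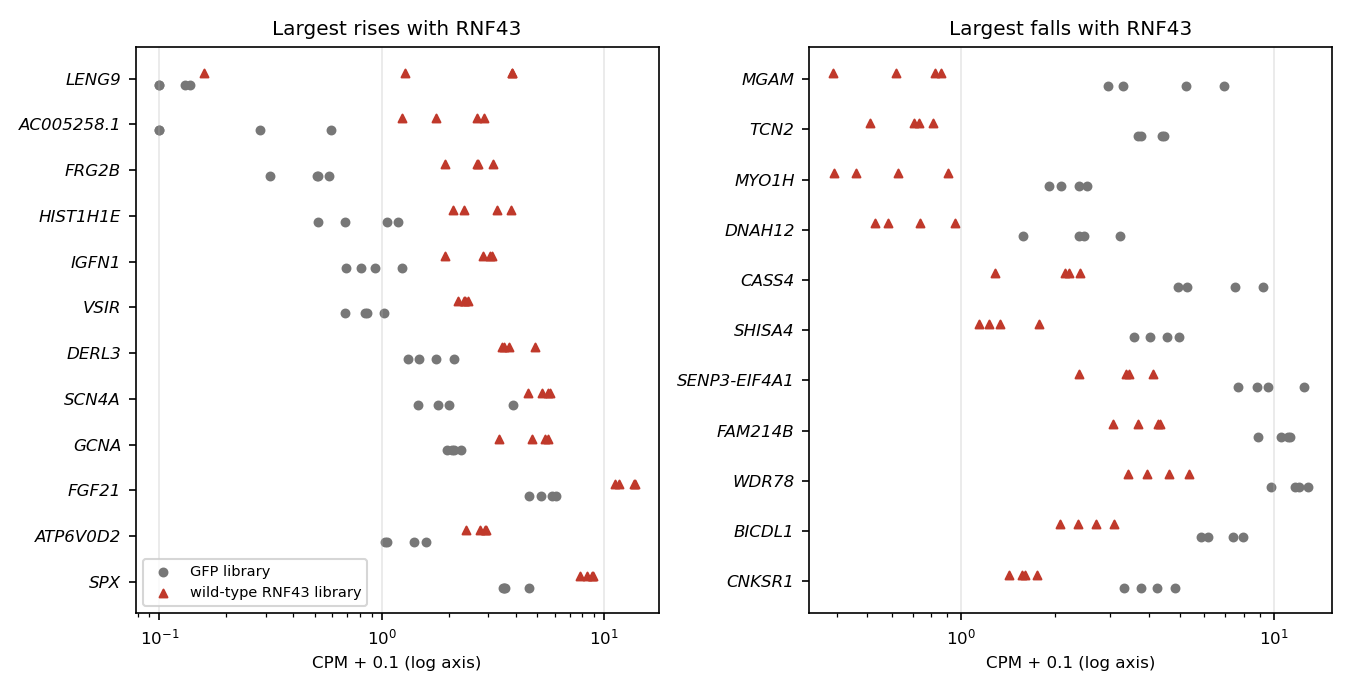
CPM plus 0.1 on a log axis in each GFP library (circles) and RNF43 library (triangles) for the 12 largest rises (left) and 11 of the 12 largest falls (right). The groups of each gene are apart by the rule that chose it, and LENG9 has the widest spread among RNF43 libraries.

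MGAM, a brush border maltase, was at 3.19, 5.15, 2.86 and 6.82 CPM in GFP and at 0.2897, 0.723, 0.765 and 0.519 CPM in RNF43. GFP replicates 2 and 4 were the highest, no RNF43 library reached the GFP range, and MGAM fell by 2.93 ± 0.32 (adjusted p = 1.2e-05). TCN2, the carrier protein for vitamin B12, was at 4.29, 3.57, 3.66 and 4.36 CPM in GFP and at 0.608, 0.633, 0.412 and 0.713 CPM in RNF43. It fell by 2.73 ± 0.17 (adjusted p = 4.0e-08) and averaged 0.534 CPM in R117fs and 0.489 CPM in G659fs. DNAH12, a dynein of motile cilia, fell by 1.96, WDR78, a dynein intermediate chain, fell by 1.45, and MYO1H, a myosin, fell by 2.09. CASS4 fell by 1.78, SHISA4 fell by 1.72, FAM214B fell by 1.46, BICDL1 fell by 1.44 and CNKSR1 fell by 1.396. SENP3-EIF4A1, a readthrough that shares reads with both parent genes, fell by 1.55.

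FGF21, a hormone of metabolic stress, was at 6.004, 5.12, 5.72 and 4.51 CPM in GFP and at 11.1, 11.6, 13.7 and 13.6 CPM in RNF43. HSPA5, the endoplasmic reticulum chaperone BiP, was at 652, 649, 620.0 and 600.0 CPM in GFP and at 1087, 1085, 1081 and 1077 CPM in RNF43. Both genes' groups were apart; FGF21 rose by 1.22 ± 0.17 (adjusted p = 8.5e-05) and HSPA5 rose by 0.78 ± 0.14 (adjusted p = 0.000917). HSPA5 averaged 2119 CPM in R117fs, and wild type minus R117fs was -0.97 (adjusted p = 0.000665). Their promoters are shown for known stress motifs, in capitals: in FGF21 the C/EBP-ATF element (TGATGNAAN, either strand), found in 3.67% of all promoters, and in HSPA5 the endoplasmic reticulum stress response element (CCAAT and CCACG set apart by any 9 bases, either strand), found in 0.0806%. Among tested genes with a matched promoter the shares were 1.72% and 0.144% in that order. The C/EBP-ATF element was in 3.05% of promoters of risen and 1.25% of fallen genes. The endoplasmic reticulum stress response element was in 8 of 1246 promoters of risen genes and 1 of 1365 of fallen genes. The windows are chr19:48755274-48755573 on the plus strand and chr9:125241294-125241593 on the minus strand.
FGF21: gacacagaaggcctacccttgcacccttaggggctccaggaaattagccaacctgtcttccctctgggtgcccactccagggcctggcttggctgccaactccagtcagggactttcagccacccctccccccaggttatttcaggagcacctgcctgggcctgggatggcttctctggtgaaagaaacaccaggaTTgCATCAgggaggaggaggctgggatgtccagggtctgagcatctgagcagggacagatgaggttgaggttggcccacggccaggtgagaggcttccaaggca
HSPA5: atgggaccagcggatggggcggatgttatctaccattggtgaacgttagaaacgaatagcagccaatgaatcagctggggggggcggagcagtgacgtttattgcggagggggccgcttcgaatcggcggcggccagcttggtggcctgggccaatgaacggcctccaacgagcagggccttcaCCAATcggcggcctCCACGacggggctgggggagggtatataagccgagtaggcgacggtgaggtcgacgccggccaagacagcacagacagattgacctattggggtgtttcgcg

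At the level of transcripts, 1851 of 72626 differed (2.55%), 736 upwards (1.01%) and 1115 downwards (1.54%). The balance of directions varied with the annotated class. Of 7013 transcripts annotated as targets of nonsense-mediated decay, which removes messages with a premature stop, 19 rose and 153 fell, with a median log2 difference of -0.13. Of 11806 retained-intron transcripts 23 rose and 225 fell (median -0.18). Of 8958 processed transcripts, which carry no open reading frame, 24 rose and 174 fell. Without GFP replicate 4 the transcript count was 684.

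The summed shares of counts were compared by a two-sided exact permutation test, which with 4 against 4 libraries cannot go below p = 0.0286. Nonsense-mediated decay transcripts held 3.995%, 4.08%, 3.89% and 4.17% of counts in GFP and 3.75%, 3.77%, 3.62% and 3.73% in RNF43. No GFP library overlapped an RNF43 library (exact permutation p = 0.0286, adjusted p = 0.0429 over 6 classes). Processed transcripts went from 3.28% ± 0.046 to 3.08% ± 0.03 (SD, n = 4 each) and pseudogenes from 0.8904% ± 0.02 to 0.8201% ± 0.01 (SD, n = 4 each), both with the same exact permutation p. Retained-intron transcripts held 3.79% ± 0.18 and 3.405% ± 0.12, and these groups overlapped (exact permutation adjusted p = 0.0686); by TPM they did not (exact permutation adjusted p = 0.0343). Mitochondrially encoded transcripts were at 1.46% ± 0.13 and 1.53% ± 0.14, with overlap. The retained-intron share was 3.98% ± 0.2 in R117fs and 3.62% ± 0.16 in G659fs; differences between the RNF43 groups were not tested.

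**Figure D4:**
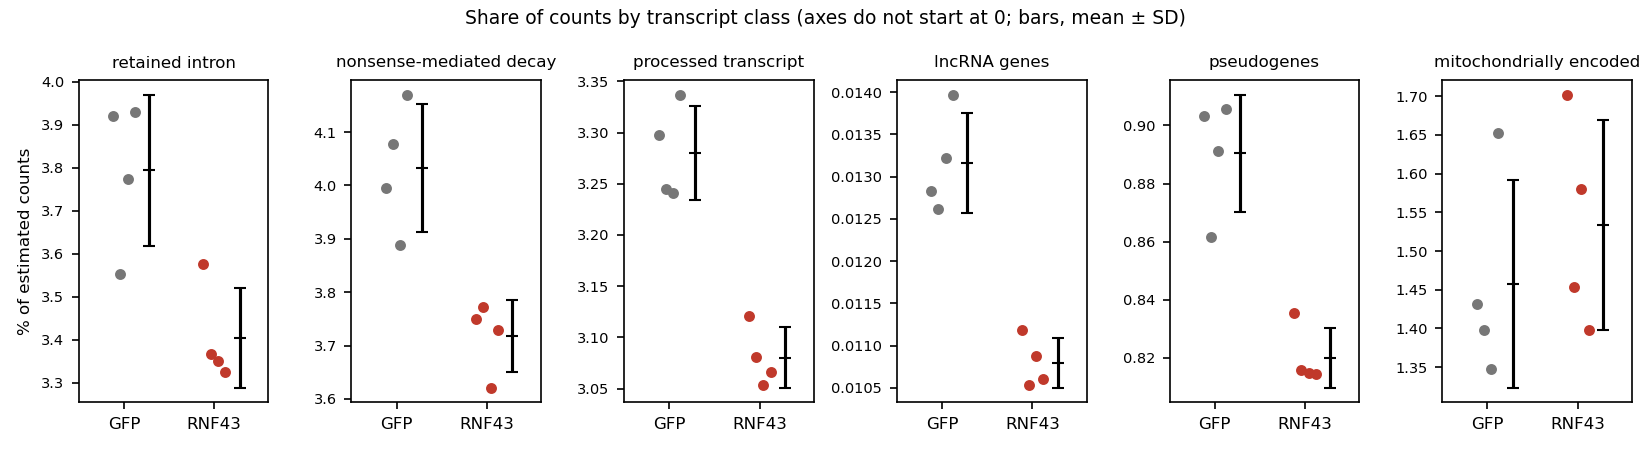
Share of estimated counts in percent in each GFP and RNF43 library for 6 transcript classes, with the mean ± SD beside the points; the axes do not start at 0. The groups are apart for nonsense-mediated decay, processed transcripts, lncRNA genes and pseudogenes, and overlap for retained introns and mitochondrially encoded transcripts. The lncRNA genes held a mean of only 0.0132% of counts in GFP and 0.0108% in RNF43.

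Of 18 factors of nonsense-mediated decay 4 fell (22.2%, against 11.6% of all genes) and 0 rose. The number that fell was 1 without GFP replicate 2 or 4 or RNF43 replicate 1, and 2 without GFP replicate 1 or RNF43 replicate 2, 3 or 4. With the 8 libraries alone 6 fell and 4 rose. UPF2, a core factor, was at 74.1, 95.2, 76.3 and 105 CPM in GFP and at 58.5, 70.01, 62.7 and 66.2 CPM in RNF43. No RNF43 library reached the GFP range, and UPF2 fell by 0.45 ± 0.13 (adjusted p = 0.0177). That call was lost without GFP replicate 2 or 4 or RNF43 replicate 1 (adjusted p of 0.0578, 0.0832 and 0.0565). The kinase SMG1 fell by 0.37 ± 0.09 (adjusted p = 0.00636). Among 7 tested SMG1P pseudogenes, a family chosen after its values were seen, 5 fell, with a median of -1.07. SMG1P5 was at 38.4, 48.1, 35.6 and 50.2 CPM in GFP and at 14.4, 14.5, 16.3 and 12.02 CPM in RNF43. RNF43 and GFP libraries did not overlap, and SMG1P5 fell by 1.58 ± 0.14 (adjusted p = 1.5e-06), but reads shared with SMG1 and among the copies were divided by estimation and these values are uncertain. Of 366 transcribed unprocessed pseudogenes 82 fell (22.4%) and 8 rose (2.19%), against 11.6% and 9.85% of all genes. Where they share reads with other genes, their counts carry the same uncertainty. Of 72 splicing regulators 9 fell (12.5%, near the 11.6% of all genes) and 3 rose (4.17%). PTBP2, the neuronal polypyrimidine tract binding protein, fell by 0.82 ± 0.14 (adjusted p = 0.000529), and RBM4 fell by 0.55 ± 0.08 (adjusted p = 0.00014).

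Transcript usage, the share of a gene's counts that each transcript takes, differed in 177 of 10484 genes (1.69%) by edgeR's diffSpliceDGE. That test made 51 false calls beside 177 recovered of 200 changed genes on simulated counts. A shift of at least 15 percentage points without overlap was also met by 48 of the genes called (0.458% of those tested). A second test, limma on the log ratio of a transcript to the rest of its gene, made 10 false calls beside 180 recovered and called 48 genes here. It was added after the data were seen. The changed genes were drawn only from those whose main transcripts passed a minimum count and differed clearly in level. Recovery in other genes was not measured. The simulated counts were drawn for each transcript on its own. Errors in dividing reads between similar transcripts are therefore not in either number of false calls, and that uncertainty was not measured. Each gene below carries the adjusted p of diffSpliceDGE and then of limma, both for the gene and not for a named transcript. The 12 genes were chosen for the size of their shift among genes at 5 CPM or more. A shift of at least 15 points without overlap was required in a transcript of each. That groups are apart there is therefore not a further result. RNF43 and PGK1 were kept out of the 12: RNF43-202 went from 25.5% to 72.5% of the counts of the overexpressed gene, and PGK1 is given last.

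NADSYN1 makes NAD in its last step (chromosome 11, 71453109 to 71524107). The coding NADSYN1-201 took 31.03%, 32.1%, 24.98% and 28.9% of the gene's counts in GFP and 56.6%, 56.9%, 56% and 62.8% in RNF43. NADSYN1-204, annotated as a decay target, took 31.9%, 31.8%, 32.9% and 31.03% of the gene's counts in GFP and 13.2%, 11.6%, 8.796% and 8.08% in RNF43. For both the libraries were apart, which the rule required of a transcript in each gene (adjusted p = 1.7e-10 and 0.00215). The gene as a whole fell by 0.62. NADSYN1-204 has an internal exon of 1406 bases that NADSYN1-201 lacks.

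FDXR, which passes electrons from NADPH towards steroid and iron-sulphur cluster synthesis, went from 36.8% to 68.8% in the coding FDXR-201 and from 17.1% to 5.21% in the retained-intron FDXR-208 (adjusted p = 0.00729 and 0.0226). Its level fell by 0.72. AK9, a nucleoside phosphate kinase, went from 38.3% to 10.4% in the long AK9-204 of 41 exons and from 38.3% to 59.7% in AK9-201 of 12 exons (adjusted p = 4.4e-05 and 0.0334). By itself AK9-201 did not pass (diffSpliceDGE adjusted p for the transcript = 0.0674). YPEL5 went from 38.7% to 13.2% in YPEL5-202 and from 44.97% to 68.5% in YPEL5-201 (adjusted p = 0.000115 and 0.0064). Both YPEL5 transcripts have 363 coding bases, and YPEL5-202 has a further non-coding internal exon of 297 bases.

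ERBB2, a receptor tyrosine kinase, did not pass the test as a gene, with a log2 difference of 0.04 ± 0.08 (adjusted p = 0.742). ERBB2-201 took 26.8%, 27.1%, 28.03% and 14.5% of the gene's counts in GFP and 46.8%, 44.1%, 56.7% and 48.4% in RNF43, and ERBB2-204 went from 33.2% to 18.8% (adjusted p = 0.0273 and 0.0473). The groups were apart for ERBB2-201, as the rule of choice required, with GFP replicate 4 the lowest. By itself ERBB2-204 did not pass (diffSpliceDGE adjusted p for the transcript = 0.106). The pair differ in their first exon, which holds 73 coding bases in ERBB2-201 and 28 in ERBB2-204.

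The other 7 of these 12 genes passed the first test and not the second. MVP, the major vault protein, went from 47.7% to 4.96% in MVP-201 and from 45.1% to 83.4% in MVP-202 (adjusted p = 0.0171 and 0.0885). Both have 2679 coding bases, and MVP-202 has stretches of 14 and 41 non-coding bases that MVP-201 lacks. By itself MVP-202 did not pass (diffSpliceDGE adjusted p for the transcript = 0.361). CHRD-201, of a BMP antagonist, went from 28.9% to 3.52% (adjusted p = 0.00156 and 0.0834). SFXN5-201 took 0.00193%, 0.169%, 14.7% and 53.1% of the gene's counts in GFP and 86.5%, 79.6%, 78.2% and 86.2% in RNF43 (adjusted p = 0.0123 and 0.226), so its GFP libraries alone spanned most of the range. By itself SFXN5-201 did not pass (diffSpliceDGE adjusted p for the transcript = 0.184). SFXN5-211 did, going from a mean share of 54.7% to 0.32% (diffSpliceDGE adjusted p for the transcript = 0.0115). ATF7IP2, ANKRD13D, MLXIPL and FAM185A had adjusted p of 0.0425, 0.00781, 0.0195 and 0.0235 by diffSpliceDGE and of 0.213, 0.0918, 0.323 and 0.0914 by limma. Decay targets among them went both ways. FAM185A-204 gained share, from 7.89% to 29.9% without overlap, and so did ATF7IP2-215, from 5.22% to 21.5% with overlap. MLXIPL-202 went from 19.75% to 1.67% without overlap and FAM185A-205 from 30.9% to 21.8% with overlap. By themselves ATF7IP2-215 and FAM185A-205 did not pass diffSpliceDGE.

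**Figure D5:**
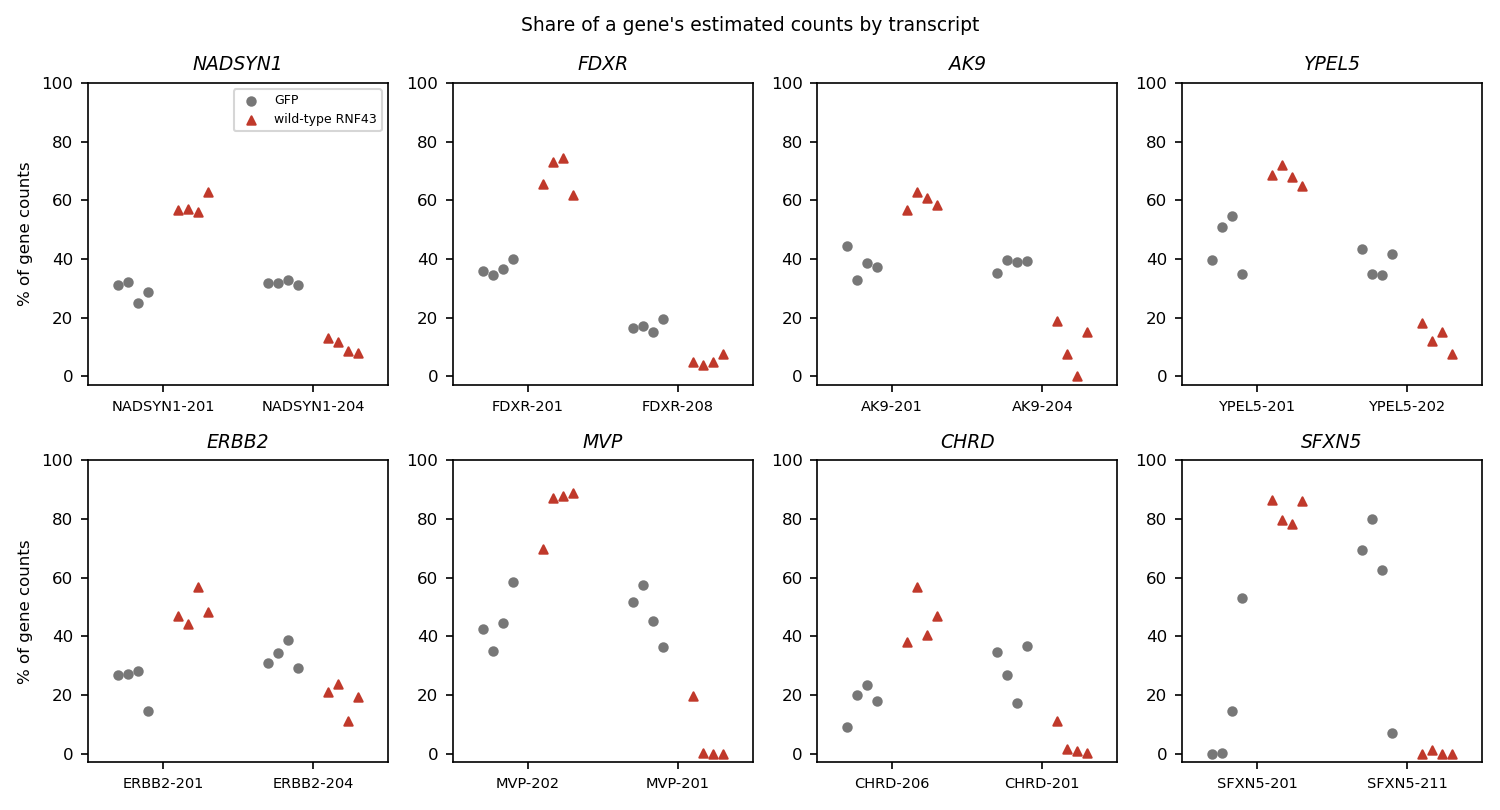
Percent of a gene's estimated counts held by 2 of its transcripts in each GFP (circles) and RNF43 (triangles) library, for 8 genes; the transcript that gained share is on the left. The GFP and RNF43 libraries are apart in each panel for the transcript that gained share, and the GFP libraries of SFXN5 are the most spread. The rule that chose these genes required groups to be apart in a transcript of each.

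PGK1 is a glycolytic kinase. PGK1-201 took 95.1%, 97.7%, 96.1% and 98.8% of the gene's counts in GFP and 49.9%, 50.6%, 53.1% and 51.3% in RNF43, and its mean share was 51.4% in R117fs and 51.2% in G659fs. The non-coding PGK1-205 went from 2.65% to 22.02% and PGK1-203 from 0.33% to 19.6%. They have 702 and 960 bases, against 4887 for PGK1-201. As counts PGK1 fell by 0.87, and with effective length as an offset the sign turned, to 1.48 (adjusted p = 1.0e-10). The level of PGK1 thus depends on whether transcript length is taken into account.

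Over all genes, 1362 differed between wild type and R117fs (8.11%) and 953 between wild type and G659fs (5.68%); these comparisons share the wild-type libraries with the one above. A few genes, chosen after their values were seen, show the patterns. ROCK1P1 was at 3.23, 2.25, 4.55 and 3.28 CPM in GFP and at 12.7, 11.3, 13.3 and 12.8 CPM in RNF43. There was no overlap between groups, and ROCK1P1 rose by 1.89 ± 0.20 (adjusted p = 7.6e-06). Wild type minus R117fs was 1.64 (adjusted p = 8.5e-05) and wild type minus G659fs 1.41 (adjusted p = 0.00119); as a partial copy of ROCK1 its counts are uncertain. TLX1, a homeobox factor, rose by 3.06 ± 0.37 (adjusted p = 2.2e-05) from a mean of 0.136 CPM, and wild type minus R117fs was 3.41 (adjusted p = 4.2e-05). CREBRF, a regulator of the CREB3 factor, was at 53.96, 68.9, 56.02 and 76.2 CPM in GFP and at 28.2, 29.4, 29.1 and 27.7 CPM in RNF43. It fell by 1.15 ± 0.15 (adjusted p = 4.5e-05), and its means of 29.6 CPM in R117fs and 30.2 CPM in G659fs did not pass the test against wild type (adjusted p = 0.85 and 0.8).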

How the data were processed

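RNA was purified on columns with DNase treatment and sequenced after an Illumina library protocol, per the labels' protocols. The submitters' processing notes name kallisto 0.45.1 and GRCh38, and the deposited files give an estimated count and a TPM per transcript. Of 178136 transcripts 162453 (91.2%) matched GENCODE 29 by identifier without version. Estimated counts were summed per gene (35075 genes) and rounded. Only 44 genes of lncRNA classes were tested, so the results hardly cover lncRNA. The main test was edgeR 4.0.16 (R 4.3.3; TMM, filterByExpr, robust quasi-likelihood fit), with all 16 libraries in 1 fit, adjusted over all features tested. CPM uses TMM-scaled library sizes. The deposited TPM gave class shares as an alternative; DESeq2 1.42.0 and limma 3.58.1 gave other tests. Usage kept transcripts with a mean share of at least 5%. Promoters came from RefSeq, the first where a symbol had several.

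Genes were named by rule: the 12 largest protein-coding rises and falls (2-fold, 2 CPM in the higher group, groups apart, 14 genes already described left out), the 6 largest at 50 CPM or more, lncRNA genes under the first conditions (RFPL3S alone, log2 difference -1.06), up to 4 called members of each of 38 lists by adjusted p, and the 12 largest usage shifts. The members and lists were chosen with earlier results of these data known. On simulated counts 82 of 100 genes changed 1.5-fold and 97 of 100 changed 2-fold were recovered, with 4 false calls among 16787. The changed genes were drawn only from those expected to exceed 50 counts in an average library. Recovery of genes below that level was not measured. One of the 12 falls is not reported here. No 2 libraries of a group agreed within sampling noise.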

Additional observations from a re-analysis of the deposited data

Results flagged for a closer look

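In 9 of 194 groups of 4 libraries checked, 1 library stood farther from the other 3 than Dixon's 95% limit on its gap over the range of the group; chance gives about 1 in 20. Among genes, the library apart was RNF43 replicate 3 for DKC1 (246 CPM, lowest) and UBE2C (107 CPM, lowest). It was RNF43 replicate 2 for HOXB4 (7.18 CPM, highest), and RNF43 replicate 1 for TF (2.17 CPM, highest) and USP32 (55.96 CPM, lowest). In GFP it was replicate 3 for SPX (4.49 CPM, highest) and replicate 2 for VANGL1 (44.5 CPM, highest). RNF43 replicate 1 also stood apart as the highest of its group in the share of counts from retained-intron transcripts (3.58%) and from pseudogenes (0.836%).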

How the results depend on the processing

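Of 203 named genes, 154 kept their direction and their side of the threshold in every setting run. Values turned sign under effective length as an offset for DAAM2 (-0.0566, adjusted p = 0.875) and PGK1 (1.48, adjusted p = 1.0e-10). Genes changed numbered 3603, but 5919 with the 8 libraries alone, 6365 with a GC trend removed, 6950 with the replicate block and GC trend, and 2221 to 6133 when 1 library was left out, the highest without R117fs replicate 4 and the lowest without GFP replicate 4. Transcripts changed numbered 684 to 1337 when 1 library was left out. Genes with changed usage numbered 278 with the 8 libraries alone, 305 by limma diffSplice, 66 with a minimum share of 10%, 650 with none, and 97 to 151 when 1 library was left out. Of the 12 usage shifts named, 4 kept their call in every setting run. Limma on log shares, tried in 3 settings added after the data were seen, called 48, 49 (pseudocount 0.5) and 73 (abundance trend). Leaving out 1 library gave 626 to 1617 genes for wild type against R117fs and 150 to 3530 against G659fs (both highest without R117fs replicate 4), where DESeq2 gave 1663. The retained-intron share differed by -0.596 percentage points of TPM and then passed the test. The cause of these shifts was not tested. Whether replicate numbers pair the libraries was not settled. Same-numbered deviations all correlated positively, at 0.05 to 0.21, and other-numbered ones at -0.20 to 0.21. GFP replicates 1 and 2 correlated best with their own number, but GFP replicates 3 and 4 correlated best with RNF43 replicates 1 and 2. GFP replicates 1 and 3 correlated at 0.16 and 0.19 with RNF43 replicate 1 and at -0.20 each with RNF43 replicate 2. For GFP replicates 2 and 4 these values were -0.20 and -0.16, and 0.21 each. GFP replicates 2 and 4 were also the highest for KDM6A, UPF2, USP32, SMG1P5, CREBRF and NR1D1, though not for ZNF467 or TCN2. The source of this pattern was not tested. With the replicate block 3940 genes, 1516 transcripts and 179 genes by usage were called.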
